A study of Mus musculus with 12 samples.

Results

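The LIM homeobox genes encode transcription factors that carry a pair of LIM zinc-finger domains and a DNA-binding homeodomain. The set described here was chosen by gene symbol and holds 8 of the 31091 rows of the P3 table, namely the 7 coding genes Lhx1, Lhx5, Lhx2, Lhx9, Isl1, Lmx1a and Lmx1b and the long non-coding RNA Lhx1os, which starts beside Lhx1 on the other strand. RNA was sequenced from isolated granule cell progenitors, the dividing precursors of the cerebellar granule neurons, to ask how their transcriptome differs without Znhit3, a gene for a zinc-finger HIT protein. The control group holds 3 libraries from WT mice at postnatal day 3 (P3), and the cKO group holds 3 libraries from mice of the same age with a Znhit3 conditional knockout. The series of 12 samples also has P6 groups, which were not analysed here. The sources used here name neither the recombinase, nor the cells it acts in, nor the strain. The labels do not say whether the libraries of a group came from separate animals, so the p-values measure the spread between these libraries, which may be technical.

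LIM homeodomain factors act in complexes. Their LIM domains bind the adaptor LDB1, which dimerises and so joins LIM factors to each other. The adaptor also binds single-stranded DNA-binding protein cofactors, while LIM-only proteins compete with LIM factors for it. In the cerebellum, Lhx1 and Lhx5 are known for their joint role in the differentiation of Purkinje cells, Lhx2 and Lhx9 mark glutamatergic neurons of the cerebellar nuclei, and Lmx1a marks the roof plate and the rhombic lip. Isl1 is best known from motor and cholinergic neurons, and Lmx1b from the isthmus, midbrain dopamine neurons and serotonin neurons.

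Lhx1 and Lhx5 are close relatives, and their homeobox shows how alike the pair is in protein and how far it can be told apart in RNA. The homeobox of each gene spans exons 3 and 4 of 5. In GRCm38 these are chr11:84521691-84521828 and chr11:84520408-84520449 on the minus strand for Lhx1, and chr5:120435491-120435628 and chr5:120436308-120436349 on the plus strand for Lhx5. The 180 bases are printed below from transcripts Lhx1-201 and Lhx5-201, 5′ to 3′, with capitals on the bases that differ between them.

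Lhx1: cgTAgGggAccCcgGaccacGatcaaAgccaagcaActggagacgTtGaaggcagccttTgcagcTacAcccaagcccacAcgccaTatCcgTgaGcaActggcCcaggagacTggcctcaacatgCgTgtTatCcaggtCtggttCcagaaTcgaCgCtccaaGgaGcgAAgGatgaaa

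Lhx5: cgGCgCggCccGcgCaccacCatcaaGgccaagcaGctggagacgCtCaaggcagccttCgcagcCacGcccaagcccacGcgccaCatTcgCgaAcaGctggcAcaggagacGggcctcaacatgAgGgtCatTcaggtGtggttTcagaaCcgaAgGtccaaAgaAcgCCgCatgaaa

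The pair shares 144 of 180 bases and differs at 36, yet both sequences encode the same 60 residues. Lhx2 with Lhx9 (143 identical bases) and Lmx1a with Lmx1b (149) likewise encode 60 of 60 identical residues, whereas any other pairing of the 7 coding genes shares only 23 to 29 residues. Over the transcripts compared, 1 per gene, the longest identical run was 20 bases between Lhx1 and Lhx5, 17 between Lhx2 and Lhx9 and 21 between Lmx1a and Lmx1b. A sequenced read has 150 bases, so no such run is as long as 1 read.

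At P3, 3 of the 8 were above 1 FPKM on average, a level scaled to the gene's length and the library's depth, and entered the test, and all 3 passed it: Lhx5 rose in cKO, and Lhx1 and Lhx1os fell. The test was limma on log2(FPKM + 1) over 13538 genes, with a threshold of 0.05 on the Benjamini-Hochberg adjusted p, which called 19.1% of all tested genes, 13.4% as higher and 5.74% as lower in cKO. The split of higher and lower calls depends on scaling, at 70.0% higher as deposited, 56.8% after quantile normalization and 81.7% after TPM scaling. The direction and the call of these 3 genes were the same under each of those scalings. The other 5 genes were each under 1 FPKM and are described by their values and by fits that include low genes.

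**Figure D1:**
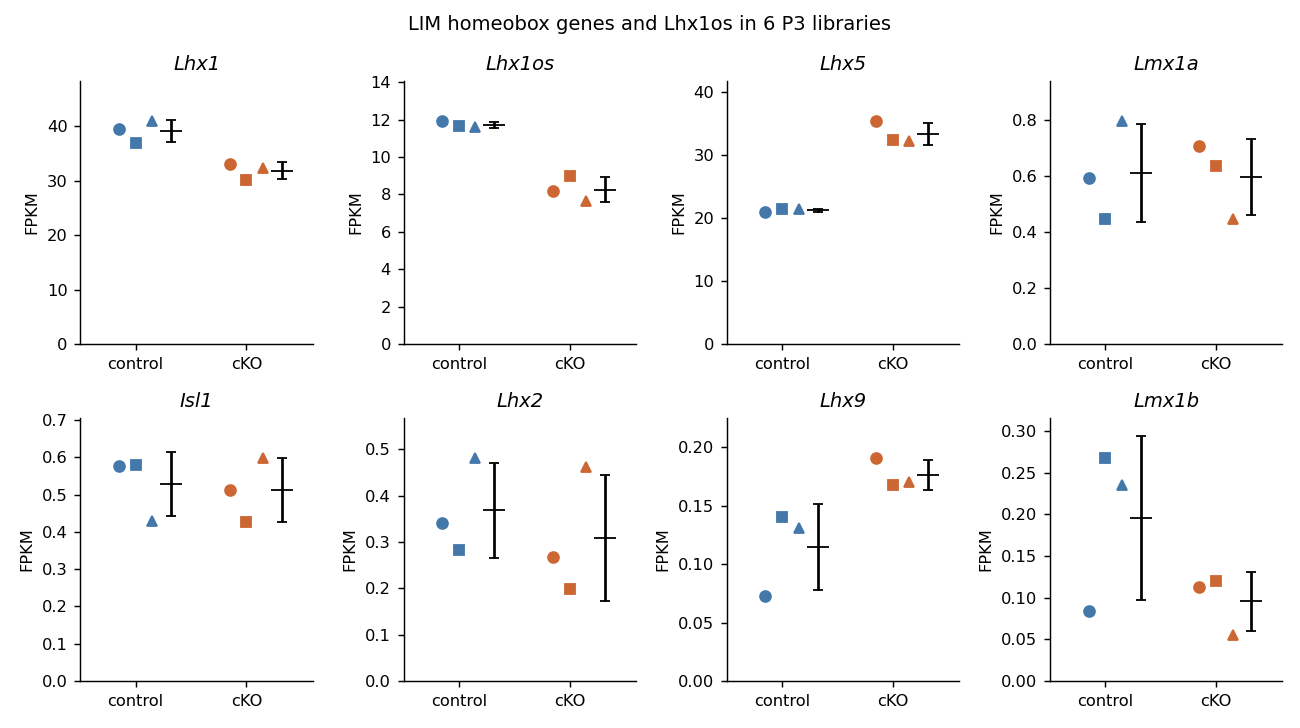
FPKM (vertical axes, from 0) of the 8 genes in control and cKO libraries at P3, with replicates 1, 2 and 3 as circles, squares and triangles and the mean and SD as a black bar (n = 3 per group). Lhx1, Lhx1os, Lhx5 and Lhx9 have groups that do not overlap, and Lmx1a and the genes of the lower row are all under 1 FPKM.

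The libraries held between 29119803 and 52961445 reads, recovered from the FPKM values. Znhit3 (8.78 ± 0.32 FPKM in control and 4.20 ± 0.32 in cKO, SD, n = 3 each) fell to 47.8% of its control level, with a difference of -0.91 ± 0.06 (SE) and a limma adjusted p of 0.00024. The exact two-sided permutation p was 0.1, the smallest that 3 against 3 libraries allow. Markers of granule progenitors were abundant in every library, among them Atoh1 at 37.5 and 35.0 FPKM and Mfap4 at 327 and 211 FPKM in control and cKO. The choroid plexus transcript Ttr was higher still, at 1370 and 665 FPKM, so transcripts known from other cells were also present. Transcripts of the sex chromosomes also differed, with Xist at 53.7 and 24.0 FPKM and the Y-linked Ddx3y at 5.28 and 12.4 FPKM, so the knockout and this difference cannot be told apart in any comparison below. Both transcripts were found in every library, at 23.7 to 56.4 FPKM for Xist and 4.92 to 13.8 FPKM for Ddx3y.

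Lhx1 (ENSMUSG00000018698, chromosome 11, 84409110 to 84416361, minus strand, in the deposited positions) was the most abundant of the 8 in control libraries. Its level was 39.4, 37.0 and 40.9 FPKM in control replicates 1 to 3 and 33.0, 30.0 and 32.3 FPKM in cKO replicates 1 to 3. Every cKO library was under every control library. Lhx1 fell from 39.1 ± 1.97 to 31.8 ± 1.54 FPKM (SD, n = 3 each), to 81.3% of control, with a log2(FPKM + 1) difference of -0.29 ± 0.05 (SE) and a limma adjusted p of 0.010. These values rest on 3832 to 8815 reads per library. In bulk RNA of this kind, fewer cells that express a gene and less RNA per cell cannot be told apart.

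Lhx1os (ENSMUSG00000087211, lncRNA, chromosome 11, 84416444 to 84430095, plus strand) is read in the opposite direction, and 82 bases separate its row from that of Lhx1. Its level was 11.9, 11.6 and 11.6 FPKM in control and 8.17, 8.96 and 7.62 FPKM in cKO, with 752 to 2078 reads per library. The control libraries lay close together, and all 3 cKO libraries were lower. Lhx1os fell from 11.7 ± 0.17 to 8.25 ± 0.67 FPKM (SD, n = 3 each), to 70.4% of control, with a difference of -0.46 ± 0.06 (SE) and a limma adjusted p of 0.0024. The rows of Lhx1 and Lhx1os do not overlap in the deposited positions. Whether counting used strand is not given in the sources used here, so reads that lie before the annotated start of either transcript cannot be assigned to a strand.

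Whether Lhx1os fell further than Lhx1 could not be settled with 3 libraries per group. The ratio of Lhx1os to Lhx1 in FPKM was 0.303, 0.315 and 0.283 in control and 0.248, 0.298 and 0.236 in cKO. The groups overlapped, and the exact two-sided permutation p was 0.2, also 0.2 after Benjamini-Hochberg adjustment over the 2 ratios tested.

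The stretch between the starts of Lhx1 and Lhx1os is shown because both transcripts fell and are read away from it. It covers chr11:84525535-84525659 in GRCm38.p6 (RefSeq promoter table), has 125 bases and is printed 5′ to 3′ on the strand of Lhx1. Capitals mark a CCAAT box, which reads ATTGG on this strand, and the core of a cAMP response element, TGACGT.

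Lhx1 to Lhx1os: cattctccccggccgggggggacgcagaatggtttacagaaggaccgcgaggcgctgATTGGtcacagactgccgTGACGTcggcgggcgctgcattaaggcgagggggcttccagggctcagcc

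The stretch has 66.4% GC, against a median of 54.4% for the same window of all promoters in the table, and 12 CpG dinucleotides. Searched on both strands in the same window of 32851 promoters, CCAAT is found in 21.9% and TGACGT in 4.64%. The letters of a TATA box, TATAAA, are not in this stretch and are in 6.55% of promoters. The homeodomain core TAATTA is not in it either and is in 2.22%. An E-box of the form CAGCTG, found in 7.00%, is likewise not in these letters. The same holds for the E-box CACCTG, which 8.82% of promoters have. Of the 8 genes, 7 have an entry in the promoter table and Lhx5 has none.

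Lhx5 (ENSMUSG00000029595, chromosome 5, 120569764 to 120579288, plus strand) moved the other way. Its level was 20.9, 21.4 and 21.4 FPKM in control and 35.4, 32.5 and 32.2 FPKM in cKO. All 3 cKO libraries were far above the narrow range of the controls. Lhx5 rose from 21.2 ± 0.27 to 33.4 ± 1.77 FPKM (SD, n = 3 each), to 157% of control, with a difference of 0.63 ± 0.05 (SE) and a limma adjusted p of 0.00040. The values rest on 1857 to 3572 reads per library.

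Among the 13538 tested genes, Lhx5 had the 111th largest rise and the 36th smallest p. Lhx1os had the 159th largest fall and Lhx1 the 512th. The row of Lhx5 overlaps the start of Gm27199, a lncRNA on the minus strand, which rose from 2.23 ± 0.24 to 3.39 ± 0.67 FPKM (limma adjusted p 0.036, and 0.060 in a fit on log2(FPKM + 0.1) that includes low genes). Without a stated use of strand, reads where the pair overlaps cannot be told apart. The authors' deposited table has log2 fold changes of -0.35 for Lhx1, -0.56 for Lhx1os and 0.60 for Lhx5. Of the 16021 genes with an adjusted p below 1 in that table, 23.1% have an adjusted p under 0.05.

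**Figure D2:**
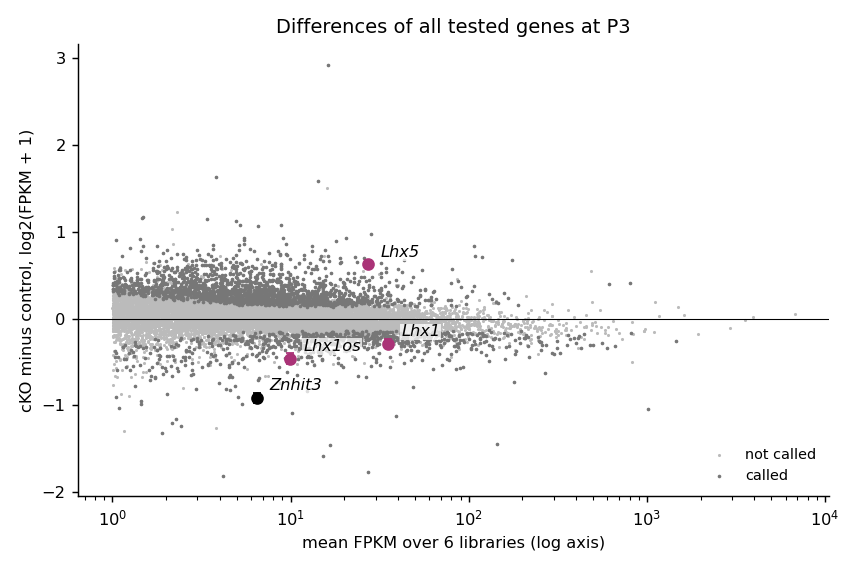
Difference in log2(FPKM + 1), cKO minus control (vertical axis) against the mean FPKM over 6 libraries (horizontal log axis) for 13538 tested genes, with called genes in dark grey and the SE drawn for the named genes. Lhx5 lies above 0 at 0.63, and Lhx1 and Lhx1os lie below at -0.29 and -0.46.

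With these changes, the balance within the pair moved from an excess of Lhx1 to near parity. The ratio of Lhx1 to Lhx5 in FPKM was 1.88, 1.73 and 1.91 in control and 0.931, 0.925 and 1.00 in cKO. The groups did not overlap, with means of 1.84 ± 0.10 and 0.953 ± 0.04 (SD, n = 3 each). Lhx1 was lower and Lhx5 higher in every cKO library, so this separation and the permutation p of the ratio were fixed in advance. They add no test beyond those of the genes themselves. The log2 ratio differed by -0.95, with an exact two-sided permutation p of 0.1, the smallest this design allows, and 0.2 after adjustment over 2 ratios. The sum of Lhx1 and Lhx5 was 60.3 ± 1.97 FPKM in control and 65.1 ± 2.98 FPKM in cKO (exact two-sided permutation p 0.1). The pair made up 97.1% of the FPKM of the 7 coding genes in control and 97.5% in cKO. Summed over all 8 genes, the level was 73.8 ± 2.11 FPKM in control and 75.1 ± 2.85 FPKM in cKO (exact two-sided permutation p 0.6).

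**Figure D3:**
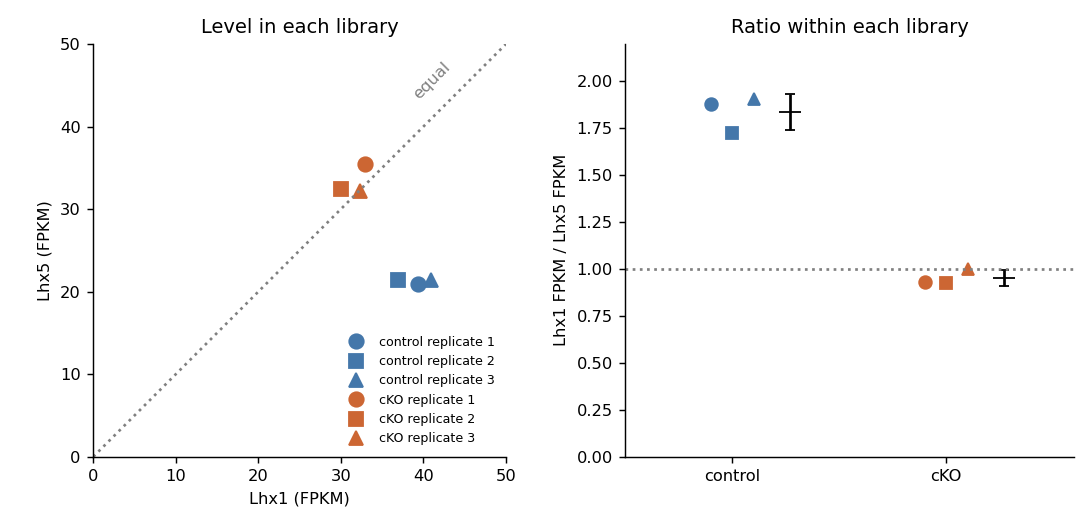
Left, FPKM of Lhx5 against FPKM of Lhx1 in each of the 6 libraries, with a dotted line of equal levels. Right, the ratio of Lhx1 to Lhx5 per library with the mean and SD (n = 3 per group), where the control libraries lie between 1.73 and 1.91 and the cKO libraries between 0.925 and 1.00.

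In order of level, control libraries had Lhx1 above Lhx5 and Lhx5 above Lhx1os, with no overlap between neighbours. In cKO libraries Lhx5 (32.2 to 35.4 FPKM) and Lhx1 (30.0 to 33.0 FPKM) overlapped, and Lhx1os followed apart from them. Lmx1a, Isl1 and Lhx2 came next in both groups, and neighbours in that order overlapped. Lmx1b and Lhx9 were lowest, overlapping in control, while in cKO Lhx9 lay above Lmx1b.

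The 5 genes of low level were tested in 2 fits whose lower limit was a mean level of 0.1 FPKM (21017 genes). The first was limma on log2(FPKM + 0.1), which called 9.83% of its genes, 6.91% as higher and 2.92% as lower. The second, added after seeing the data, was limma-voom on the recovered reads, which called 17.9%, 12.7% as higher and 5.21% as lower. Neither fit called any of the 5. At an unadjusted p under 0.05 the first fit had 0 of the 5 and voom had 1, Lhx9, while both called Lhx1, Lhx1os and Lhx5 in the directions given above. The groups did not overlap for 4 of the 8 genes, of which Lhx9 is the only low one, against 40.5% of the 13538 tested genes, 32.3% of the 21017 genes and 17.5% of those between 0.1 and 1 FPKM.

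Lmx1a (ENSMUSG00000026686), the roof plate and rhombic lip factor, was at 0.593, 0.447 and 0.795 FPKM in control and 0.706, 0.636 and 0.445 FPKM in cKO. The groups overlapped almost fully. The difference was -0.02 ± 0.25 (SE, adjusted p 0.97) in the first fit and -0.06 (adjusted p 0.92) with voom, from 495 reads over the 6 libraries. The spread within a group (SD 0.17 and 0.14 FPKM) exceeded the difference between the means.

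Lmx1b (ENSMUSG00000038765), its homeodomain twin, was at 0.084, 0.268 and 0.235 FPKM in control and 0.112, 0.120 and 0.055 FPKM in cKO. Control replicate 1 lay within the cKO range, and the other control libraries lay above it. The mean in cKO was 49.0% of control, on only 175 reads in all, and as few as 8 in 1 library. The difference of -0.55 ± 0.39 (SE, adjusted p 0.42) in the first fit and -0.86 ± 0.48 (adjusted p 0.24) with voom did not pass.

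Isl1 (ENSMUSG00000042258) was at 0.577, 0.579 and 0.429 FPKM in control and 0.512, 0.426 and 0.599 FPKM in cKO. The groups spanned nearly the same range. The difference was -0.04 ± 0.20 (SE, adjusted p 0.93) in the first fit and -0.03 (adjusted p 0.95) with voom.

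Lhx2 (ENSMUSG00000000247) was at 0.341, 0.282 and 0.481 FPKM in control and 0.267, 0.198 and 0.461 FPKM in cKO. Replicate 3 was the highest library of each group. The difference was -0.23 ± 0.31 (SE, adjusted p 0.70) in the first fit and -0.42 ± 0.31 (adjusted p 0.40) with voom.

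Lhx9 (ENSMUSG00000019230), which shares its homeodomain with Lhx2, was at 0.072, 0.140 and 0.131 FPKM in control and 0.191, 0.167 and 0.170 FPKM in cKO. Each cKO library was above each control library. The difference was 0.38 ± 0.31 (SE, adjusted p 0.48) in the first fit and 0.67 ± 0.30 (adjusted p 0.13) with voom, from 316 reads in all. For Lhx9 the authors' deposited table has a log2 fold change of 0.57 and an adjusted p of 0.26.

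The other 5 LIM homeobox genes of the mouse table, Lhx3, Lhx4, Lhx6, Lhx8 and Isl2, were all under 1 FPKM, and none entered the main test. Lhx3, a partner of Isl1 in motor neurons, had the highest mean of them over the 6 libraries, while in cKO Lhx6 was higher (0.431 against 0.282 FPKM). It was at 0.686, 0.621 and 0.719 FPKM in control and 0.263, 0.245 and 0.338 FPKM in cKO. The groups were well apart, on 352 reads. Lhx3 fell by 1.03 on the log2(FPKM + 0.1) scale in the first low-level fit (adjusted p 0.020) and by 1.30 with voom (adjusted p 0.0027). The authors' deposited table gives a log2 fold change of -1.33 with an adjusted p of 0.00072.

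Of the 6 LIM cofactors measured, 1 rose and none fell (2 each way at an unadjusted p under 0.05), with a median difference of -0.04 against 0.03 over all tested genes. Ldb2, an adaptor related to Ldb1, rose from 1.81 ± 0.09 to 2.44 ± 0.25 FPKM (SD, n = 3 each, limma adjusted p 0.035), a call that was lost in 11 of 18 alternatives. Ldb1, the main adaptor of these factors, was at 72.8 ± 1.68 FPKM in control and 64.2 ± 5.82 FPKM in cKO (adjusted p 0.083). Ssbp3, which binds and stabilises the adaptor, was at 40.3 ± 2.01 and 34.7 ± 2.95 FPKM (adjusted p 0.058). Rlim, a ubiquitin ligase for the adaptor, was at 6.57 ± 0.37 and 7.60 ± 0.40 FPKM (adjusted p 0.059). With voom on the recovered reads and low genes included, 2 of the 6 were called higher (Ldb2 and Rlim) and 2 lower (Ldb1 and Ssbp3). Over the 19 alternatives, that fit among them, Ldb1 was called lower in 4, Ssbp3 lower in 5 and Rlim higher in 5.

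None of the 4 LIM-only genes passed the limma test, and their median difference was 0.09. At an unadjusted p under 0.05 there was 1, Lmo2, and voom with low genes included also called 0 after adjustment. Lmo2 was called higher in 3 of 19 alternatives (adjusted p down to 0.024). Lmo4, the most abundant, was at 29.9 ± 2.44 FPKM in control and 29.4 ± 1.36 FPKM in cKO (limma adjusted p 0.87). Lmo2 was at 16.8 ± 1.03 and 19.1 ± 0.98 FPKM (adjusted p 0.065).

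Markers of the cell types in which these factors are known moved in different directions, and their part in the member differences was not tested. Beside Lhx1 and Lhx5, 8 of 12 Purkinje markers were tested, of which 4 rose and none fell (7 and 0 at an unadjusted p under 0.05, and 7 and 0 of 12 after adjustment with voom), with a median of 0.24. Itpr1, the inositol trisphosphate receptor of Purkinje cells, rose from 2.63 ± 0.25 to 3.74 ± 0.14 FPKM (limma adjusted p 0.0079). Car8 rose from 3.74 ± 0.36 to 4.84 ± 0.38 FPKM (adjusted p 0.029) and Dab1, the reelin adaptor, from 3.51 ± 0.35 to 4.47 ± 0.29 FPKM (adjusted p 0.034). The summed level of the list was 25.4 to 28.4 FPKM in control and 31.5 to 33.6 FPKM in cKO. The calls of Calb1, Car8 and Dab1 were lost in 12, 7 and 9 of 18 alternatives. The more specific Purkinje genes Skor2 (0.330 and 0.264 FPKM) and Pcp2 (0.381 and 0.400 FPKM) were under 1 FPKM in both groups.

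All 9 markers of the cerebellar GABAergic lineage rose, with a median of 0.70 and a summed level of 83.4 to 91.5 FPKM in control and 132 to 154 FPKM in cKO. Gad1, which makes GABA, rose from 6.28 ± 0.36 to 11.2 ± 0.42 FPKM (limma adjusted p 0.00036). Slc32a1, the vesicular GABA transporter, rose from 5.40 ± 0.43 to 9.77 ± 0.57 FPKM (adjusted p 0.00062). Pax2, a factor of GABAergic interneuron precursors, rose from 8.68 ± 0.83 to 15.1 ± 1.11 FPKM (adjusted p 0.0012). Lhx5 also rose, while Lhx1 fell, and 13.4% of all tested genes were called higher. Whether the change of either gene is linked to these markers was not tested.

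Beside Lmx1a, 8 of 11 roof plate and choroid plexus markers were tested, of which 6 fell and 1 rose, with a median of -0.79. Ttr, the thyroid hormone carrier of the choroid plexus, fell to 665 ± 43.9 FPKM, 48.5% of control (limma adjusted p 0.00024), and makes up most of the summed level of 1367 to 1453 FPKM in control and 654 to 732 FPKM in cKO. Aqp1, a water channel, fell from 7.37 ± 0.27 to 3.26 ± 0.45 FPKM (limma adjusted p 0.00053). Folr1, a folate receptor, fell from 6.37 ± 0.20 to 3.32 ± 0.35 FPKM (adjusted p 0.00063). Otx2, a factor of choroid plexus and posterior granule progenitors, rose from 19.4 ± 0.58 to 22.3 ± 0.80 FPKM (adjusted p 0.024), a call lost in 7 of 19 alternatives (adjusted p up to 0.077). Of the roof plate genes in the list, Msx1 fell from 5.26 ± 0.21 to 3.76 ± 0.32 FPKM (adjusted p 0.0060), and Wnt1 and Gdf7 were under 1 FPKM.

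Beside the low Lhx2 and Lhx9, 2 of 6 cerebellar nuclei markers were tested and 1 rose, Slc17a6, the vesicular glutamate transporter VGLUT2, from 8.51 ± 0.16 to 10.2 ± 0.46 FPKM (limma adjusted p 0.013). Its call was lost in 1 of 19 alternatives, without cKO replicate 2 (adjusted p 0.056). Tbr1, a factor of the nuclear neurons, was at 0.102 and 0.098 FPKM. None of the 5 unipolar brush cell markers passed the limma test, at an unadjusted p under 0.05 or with voom, with Eomes at 9.16 ± 0.59 and 8.37 ± 1.20 FPKM (adjusted p 0.37). Beside Isl1, none of the 4 motor and cholinergic genes in the table reached 1 FPKM, and the first low-level fit called none of them. Voom called Slc5a7 higher (adjusted p 0.025, against 0.12 in the first fit) and Slc18a3 lower (0.041, against 0.18). Beside Lmx1b, 4 of the 10 isthmus, midbrain and raphe genes in the table were tested and 1 was called higher, Gata2, at 0.684 ± 0.10 and 1.36 ± 0.20 FPKM (adjusted p 0.013). Gata2 passed the filter at 1 FPKM only through its cKO level, and its call was lost in 1 of 15 alternatives, with no filter (adjusted p 0.051).

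Of the 9 granule progenitor markers, 3 fell and none rose (5 and 0 at an unadjusted p under 0.05, and 5 and 0 after adjustment with voom), with a median of -0.17. Mfap4, an extracellular matrix gene, fell from 327 ± 5.28 to 211 ± 5.86 FPKM (limma adjusted p 0.00033). Barhl1, a homeobox factor, fell from 111 ± 7.20 to 74.8 ± 2.40 FPKM (adjusted p 0.0011). Pax6 fell from 44.6 ± 0.82 to 36.4 ± 0.95 FPKM (adjusted p 0.0035), a difference of -0.29, as for Lhx1. Atoh1, which defines the lineage, was at 37.5 ± 3.26 and 35.0 ± 2.08 FPKM (adjusted p 0.36).

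**Figure D4:**
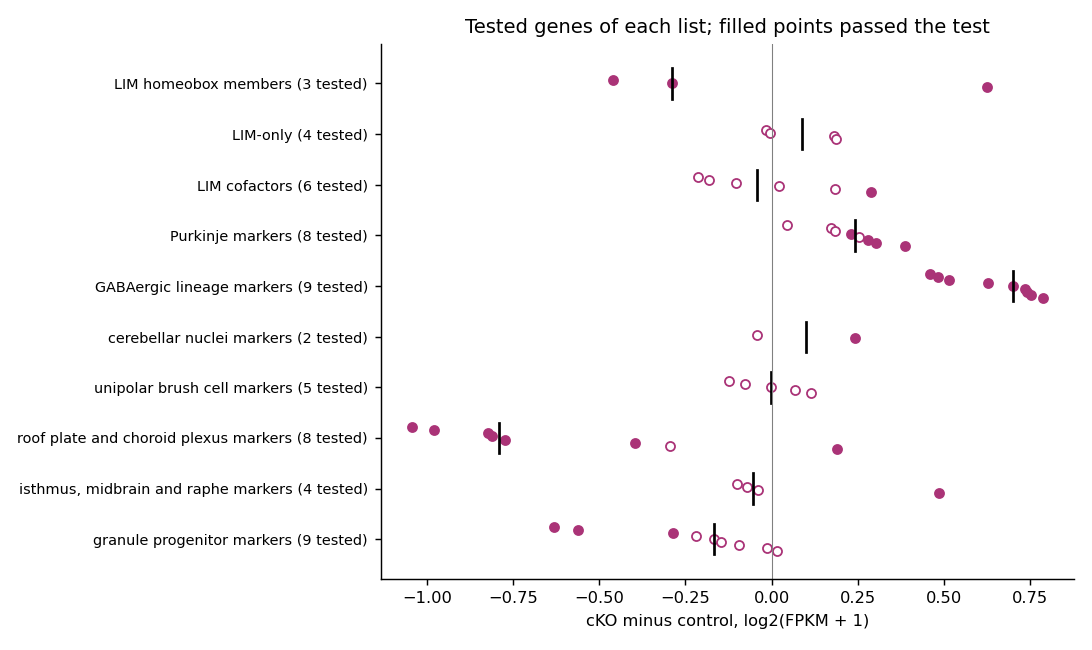
Difference in log2(FPKM + 1), cKO minus control (horizontal axis) for each tested gene of each list, with filled points past an adjusted p of 0.05 and the median as a black bar. The 9 GABAergic lineage markers all lie above 0, with a median of 0.70, and the roof plate and choroid plexus markers have a median of -0.79.

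Lhx1 lies on the chromosome that carries the deleted gene, and 385.415 kb separate its end from the nearest base of Znhit3. Of the 16 genes above 1 FPKM that start within 500 kb of the start of Lhx1 (lowest deposited coordinate of each row), 4 fell, 3 rose and 9 did not pass the test. The same test called 5.74% of all 13538 tested genes as lower and 13.4% as higher. Of the 4 neighbourhood genes that fell, 3 are Lhx1 itself, Lhx1os and the deleted gene Znhit3. The other is Dusp14, a dual-specificity phosphatase, which went from 8.60 ± 0.46 to 6.62 ± 0.71 FPKM (limma adjusted p 0.020). Aatf, the nearest tested gene on the far side of Lhx1, was at 15.8 ± 1.29 and 13.6 ± 0.90 FPKM (adjusted p 0.085).

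Between Lhx1os and Znhit3 the called genes rose. Ggnbp2 rose from 17.2 ± 0.38 to 19.8 ± 0.52 FPKM (limma adjusted p 0.018). Pigw, an enzyme of glycosylphosphatidylinositol anchor synthesis, rose from 2.08 ± 0.17 to 2.77 ± 0.19 FPKM (adjusted p 0.028). Beyond Znhit3, the carbonic anhydrase Car4 rose from 7.14 ± 0.32 to 9.99 ± 0.78 FPKM (adjusted p 0.0039). The other genes that did not pass were Tada2a, Acaca, Mrm1, Dhrs11, Gm57352, Myo19, Gm56198 and Usp32. Members on other chromosomes, Lhx5 among them, are not neighbours of Znhit3. Whether position near Znhit3 has a part in any of these differences was not tested.

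**Figure D5:**
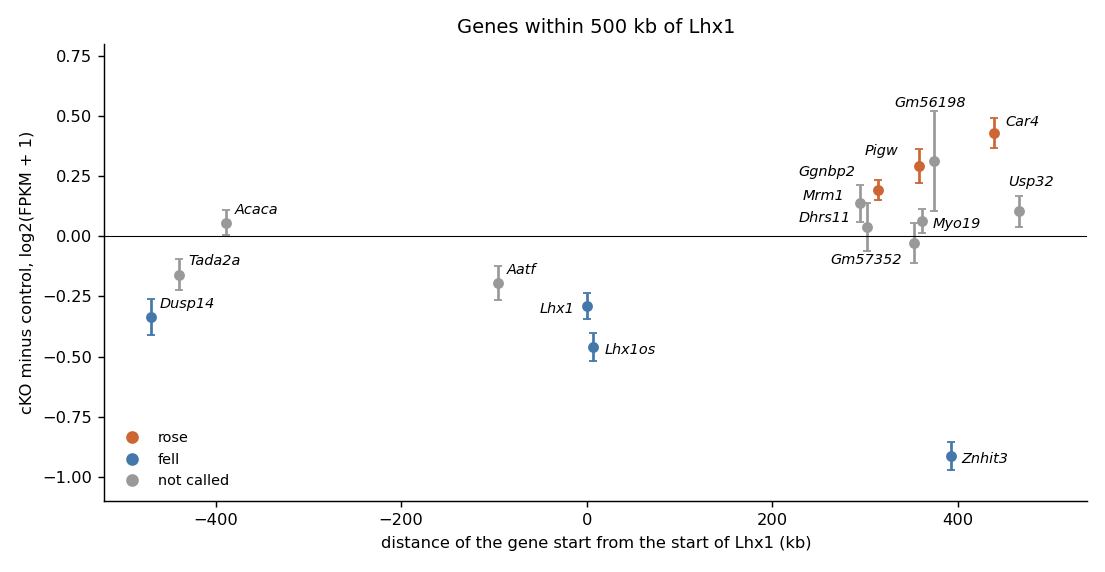
Difference in log2(FPKM + 1), cKO minus control, with its SE (vertical axis) for the 16 tested genes within 500 kb of Lhx1, placed by the distance of their start from that of Lhx1 in kb (horizontal axis). Lhx1 and Lhx1os at -0.29 and -0.46 lie apart from Znhit3 at -0.91. Between them are the risen genes Ggnbp2 and Pigw and the uncalled genes Mrm1, Dhrs11, Gm57352, Myo19 and Gm56198.

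The tested genes with the profiles most like those of the 3 called members were found by the root mean square distance between centred log2(FPKM + 1) values over the 6 libraries, among 13537 genes. For Lhx5 they were Plxnd1, Ptprb, Pcdh1, Grik3 and Nanos1, at distances of 0.028 to 0.035 against 0.316 for Lhx5 from its own mean. For Lhx1os they were Msx1, Bex1, Nefm, Ntn4 and Pdgfc, at 0.051 to 0.057 against 0.239. For Lhx1 they included Carmil2, Rwdd3, Pax6 and Arhgef39, at 0.031 to 0.038 against 0.156. Neither Lhx1 nor Lhx1os was among the 5 nearest of the other. The different sizes of their falls fixed this in advance, so it does not show whether the pair varied together.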

How the data were processed

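Poly(A) RNA was made into dUTP libraries and sequenced in pairs of 150 bases, per the labels' protocols. Per the submitters' processing notes, mm10, HISAT2 2.2.1, StringTie 2.1.6, cutadapt 1.9, DESeq2 and edgeR were used, with no role or order given. The deposited table holds FPKM values that the authors made for 3 control and 3 cKO libraries, and a comparison by the authors with log2 fold changes and p-values, per the file headers. The cKO columns carry the prefix ZM, taken as cKO because the labels list no other P3 samples besides WT, and replicates were matched by number. Only 614 of 29560 shared genes have the same start and end in GRCm38, so gene positions are printed as deposited with no build, and sequences carry their own.

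Tests used limma 3.58.1 in R 4.3.3 on log2(FPKM + 1), with an intensity trend, for genes that averaged 1 FPKM or more across the 6 libraries, after a check on simulated data. This scale understates changes of low genes. FPKM times the deposited length gave whole reads for 100.0% of values within 0.001 reads. Counts of 3 reads in 1 kb correspond to 0.057 to 0.10 FPKM, for counting error only. No library was a duplicate of another in its group (chi-square per degree of freedom 4.38 to 9.71). The members and lists were chosen with earlier results of these data known. The text names the 8 members, Znhit3, up to 3 called genes per list by smallest p or the most abundant if none, partners, genes within 500 kb of Lhx1, and the 5 nearest profiles, and 1 result that this rule names is not reported here. Xist, Ddx3y, Gm27199, Lmo2, Calb1, Skor2, Pcp2, Otx2, Msx1, Wnt1, Gdf7, Lhx6, Tbr1, Slc5a7, Slc18a3 and Atoh1 were named after their values were seen. Homeobox sequences come from GENCODE transcripts on GRCm38 and the promoter from RefSeq. Alternatives covered pseudocount, filter, scaling, variance model, replicate block, voom and leaving out each library.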

Additional observations from a re-analysis of the deposited data

How the results depend on the processing

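Lhx1, Lhx1os and Lhx5 kept their direction and their call in all 19 alternatives run, and the count of members changed was 3 in each. Their differences ranged from -0.34 to -0.25 for Lhx1 (limma adjusted p 0.00023 to 0.045), from -0.52 to -0.40 for Lhx1os (up to 0.013) and from 0.58 to 0.68 for Lhx5 (up to 0.0062). Znhit3 ranged from -1.07 to -0.89. The count of genes changed, 2590, was 1271 with no filter on low values, where 31091 genes were tested, and 1193 to 2170 when 1 library was left out (1193 without cKO replicate 2, 1334 without the second control library, 1491 without the third, and 1538 without cKO replicate 3). It was 1542 with the replicate block. The deviations of same-numbered libraries correlated at -0.02, 0.04 and -0.10, and not every library correlated best with its own number. With 3 libraries per group, these values cannot show whether same-numbered libraries were paired. Differences that changed sign were all uncalled. Lmo4 (-0.02) was 0.0017 with quantile normalization, 0.022 with TPM scaling and -0.065 to 0.045 when 1 library was left out. Dhrs11 (0.04) was -0.045 with quantile normalization and -0.061 to 0.14 with 1 library left out. Gm57352 (-0.03) was 0.0058 with TPM scaling, 0.0083 with array weights and -0.085 to 0.044 with 1 library left out. With quantile normalization Acaca was -0.015 and Myo19 -0.020. Among the neighbours, the calls of Dusp14 and Ggnbp2 were each lost in 4 of 19 alternatives and that of Pigw in 6 of 18. The cause of these changes was not tested. An edgeR fit on the recovered reads was listed as an alternative and was not run. The 5 low genes had 175 to 495 reads each over 6 libraries, and whether depth set their calls was not tested.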
